A study of Mus musculus with 12 samples.

Results

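The cytosolic ribosomal protein genes code for the proteins of the small and the large subunit of the ribosome that translates nuclear-coded mRNA. They were taken by gene name, as every gene called Rpl or Rps with a number (with an optional a, l, x or y), together with Rplp0, Rplp1, Rplp2 and Rpsa, and without names that mark pseudogenes. The rule found 86 genes among the 18604 in any of the 4 tables. Of these, 81 were annotated as protein coding, 32 of the small and 49 of the large subunit, and 5 carried a pseudogene biotype (Rpl32l, Rpl6l, Rps3a2, Rps3a3 and Rps4l). The rule reads names only.

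The data are poly(A) RNA levels in the heart of 12-week-old C57Bl/6J males. There were 4 groups with 3 libraries each. BCAA-free TAC mice ate a diet lacking the branched-chain amino acids (BCAA: leucine, isoleucine and valine) and had TAC surgery (transverse aortic constriction). A band around the aortic arch raises the pressure against which the left ventricle pumps. BCAA-free sham mice ate the same diet and had the control surgery. BCAA-control TAC and BCAA-control sham mice ate a defined diet with BCAA at the concentrations of standard chow. The diets began 4 days before surgery and went on until hearts were taken 1 week after it, so every group had both surgery and a change of diet. The design asks how ribosomal protein mRNA changed under pressure overload on each diet, and whether its level depended on BCAA in the diet after either surgery.

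Libraries held 74206246 to 110452636 reads. All 11 cardiomyocyte markers were detected, with summed levels of 7773069 to 8314519 normalized reads in BCAA-free TAC, 7741092 to 8352920 in BCAA-free sham, 5409603 to 6147500 in BCAA-control TAC and 6882957 to 7499939 in BCAA-control sham hearts. Normalized reads are reads divided by a size factor set over the 12 libraries together. In whole tissue, fewer cells of a type and less RNA per cell cannot be told apart. Mitochondrially coded genes took 21.8% to 22.5% of reads in BCAA-free TAC, 22.6% to 23.6% in BCAA-free sham, 17.9% to 19.9% in BCAA-control TAC and 22.4% to 27.1% in BCAA-control sham libraries. BCAA-control TAC 3 stood farthest from its group for the ribosomal protein genes, as described below with their joint movement.

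Ribosomes hold 1 copy of nearly all of their proteins, so the genes are usually expressed in a fixed proportion, while the paralogs among them (Rpl3 and Rpl3l, for example) can exchange in a tissue-specific way. Their mRNAs typically start with a 5′ terminal oligopyrimidine (TOP) tract, an uninterrupted run of C and T at the first bases of the message. Through this tract the kinase complex mTORC1, which leucine activates, and the protein LARP1 control how well the messages are translated and how stable they are. In the heart, pressure overload is known to raise ribosome production as cardiomyocytes enlarge.

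The messages were abundant and short. Protein-coding members averaged 2539 to 63360 normalized reads over the 12 libraries, with a median of 17976, and their transcripts had a median length of 774 bases. Set per kilobase of transcript, Rps2 led with 63487 reads per kilobase, followed by Rplp1 (a stalk protein that recruits elongation factors) with 63227, Rps14 with 58961 and Rps15 with 53484. The median over the 81 genes was 24995 reads per kilobase. At the low end stood Rpl7l1 with 1548 reads per kilobase, Rpl22l1 with 4599 and Rps27l with 9671, each named as a paralog of a more abundant member. Rps20 with 3120 and Rps15a with 3156 reads per kilobase also stood low on this scale, on which their transcripts counted as 3706 and 5130 bases long.

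Among the genes with a pseudogene biotype, Rps4l ran from 1344 to 2076 normalized reads per library, Rps3a2 from 134 to 177, Rps3a3 from 28.4 to 59.8 and Rpl6l from 24.6 to 47.7. Rpl32l had 5 to 9 reads per library in BCAA-free TAC, 13 to 18 in BCAA-control TAC and 1 to 15 in BCAA-control sham hearts, and was in the 2 tables that hold the BCAA-control TAC libraries. How the counting treated strand and multiply mapped reads is not stated in the labels. Of the 86 genes, 21 overlap another protein-coding gene and 30 hold a small nucleolar RNA gene, and ribosomal protein genes have many near-identical copies in the genome, so some reads may come from these.

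The 5′ ends are shown for 5 of the genes called in the comparisons below, as examples with and without a pyrimidine run at the start. RefSeq start sites of the build GRCm38.p6 were matched by symbol for 62 of the 86 genes. The windows run from 40 bases before the annotated start to 20 bases from it onward, on the gene's strand, 5′ to 3′, and capitals mark the longest pyrimidine run of at least 8 bases lying between 30 before and 50 after the start. Rpl38 and Rps27 show a run over the start itself, Rps26 has one just inside the message, and the printed windows of Rpl24 and Rpl3l hold no such run. For Rpl3l the first of 2 annotated starts is shown, and a run of 9 bases lies beyond the printed end. Among the called genes not shown, Rpl39 has a run farther into the message, of 14 bases up to the end of the stretch searched. Rps27l has a run of 9 bases at 1 of its 2 starts, and Rpsa has none at the start matched. For Rpl39 and Rpsa the annotated gene extends upstream of the RefSeq start used, so a run at an earlier start could be missed.
Rpl38, chr11:114668540-114668599, plus strand: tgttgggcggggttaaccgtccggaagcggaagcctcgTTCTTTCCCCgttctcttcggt
Rps27, chr3:90213629-90213688, minus strand: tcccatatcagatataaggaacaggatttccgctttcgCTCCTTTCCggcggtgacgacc
Rps26, chr10:128626487-128626546, minus strand: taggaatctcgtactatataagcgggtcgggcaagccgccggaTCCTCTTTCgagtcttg
Rpl24, chr16:55966235-55966294, plus strand: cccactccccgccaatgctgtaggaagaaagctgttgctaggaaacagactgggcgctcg
Rpl3l, chr17:24727786-24727845, plus strand: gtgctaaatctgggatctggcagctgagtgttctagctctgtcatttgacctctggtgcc

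Over the longer windows, from 250 bases before to 50 after each start, 49 of the 62 matched genes (79.0%) had a pyrimidine run of at least 8 bases in the stretch from 30 before to 50 after a start, against 32.3% of the 27025 symbols with a promoter. The letters CTCTTTC, read on the sense strand in the same stretch and able to lie within such a run, were found in 12 of the 62 (19.4%), against 1.28% of symbols. CCGGAAG, the core of an ETS factor motif, was found on either strand anywhere in the window in 25 (40.3%), against 9.93%. A gene was counted when any of its annotated starts had the motif. These matches describe letters only, and a run in the stretch searched need not lie at the first bases of the message. The part of the TOP tract in the fold changes was not tested. The genes with a run and those without it had similar median log2 fold changes with TAC on the BCAA-free diet, 0.12 over 48 genes and 0.10 over 13, and likewise in BCAA-free against BCAA-control TAC hearts, 0.10 over 49 and 0.14 over 13.

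Ribosomal protein genes together took about 2% of the reads. They came to 1.90%, 1.91% and 1.72% of all reads in BCAA-free TAC libraries, against 1.69%, 1.70% and 1.80% in BCAA-free sham libraries, which overlap. They came to 2.0%, 1.87% and 2.25% in BCAA-control TAC libraries, against 1.76%, 1.66% and 1.54% in BCAA-control sham libraries, where every TAC library was above every sham library. The means were 1.85% ± 0.107, 1.73% ± 0.0612, 2.04% ± 0.193 and 1.65% ± 0.111 in the same order (SD, n = 3 each). Mitochondrially coded genes took a smaller share of the reads in the BCAA-control TAC libraries. With them left out of the total, the shares were 2.44%, 2.47% and 2.21% in BCAA-free TAC, 2.19%, 2.21% and 2.36% in BCAA-free sham, 2.5%, 2.27% and 2.75% in BCAA-control TAC and 2.41%, 2.14% and 2.01% in BCAA-control sham libraries. On that total the TAC and sham libraries overlapped on both diets.

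The genes moved together from library to library within each group. With each gene's log2 values taken as deviations from its group means, all 3240 pairs among the 81 protein-coding genes had a positive Pearson correlation over the 12 libraries, with a median of 0.838. This is a description, since all pairs share the libraries and their depth, and it leaves out differences between groups. In BCAA-control TAC 3, 83 of 85 genes were above their group mean, by a median of 0.22 (log2), while in BCAA-control TAC 2 only 1 gene of 85 was, with a median of -0.18. In BCAA-control sham 1, 80 of 85 were above (median 0.13), and in BCAA-control sham 3 only 3 (median -0.15). The BCAA-free libraries spread less: 74, 67 and 5 genes were above the mean in BCAA-free TAC 1, 2 and 3 (medians 0.05, 0.05 and -0.11), and 26, 7 and 80 in BCAA-free sham 1, 2 and 3 (medians -0.02, -0.04 and 0.07). The pooled SD of the library medians was 0.136 (log2).

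Other short, abundant messages moved with them. A set of 852 other genes with at least 2000 normalized reads and transcripts of up to 1500 bases had median deviations of 0.23 in BCAA-control TAC 3 and -0.16 in BCAA-control TAC 2, close to the values of the ribosomal protein genes. Another 1883 abundant genes with transcripts of at least 4000 bases had -0.11 and 0.09 in these libraries, the opposite sign. In the BCAA-control sham group the short genes followed with a smaller swing, 0.07 in library 1 and -0.08 in library 3, against 0.13 and -0.15 for the ribosomal protein genes. The median SD within groups was 0.15 (log2) over the protein-coding ribosomal protein genes and 0.114 over 5438 other genes of the same minimum level. Rn7sk, Rmrp and Rpph1, structured RNAs that lack a poly(A) tail, had a summed CPM of 63.6, 7.79 and 76.1 in BCAA-free TAC 1, 2 and 3. Their sum was 19.3 CPM in BCAA-control TAC 3 and 115.5 CPM in BCAA-control sham 2, against 2.06 to 4.23 CPM elsewhere. The part of message length or of these RNAs in the results below was not tested.

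**Figure D1:**
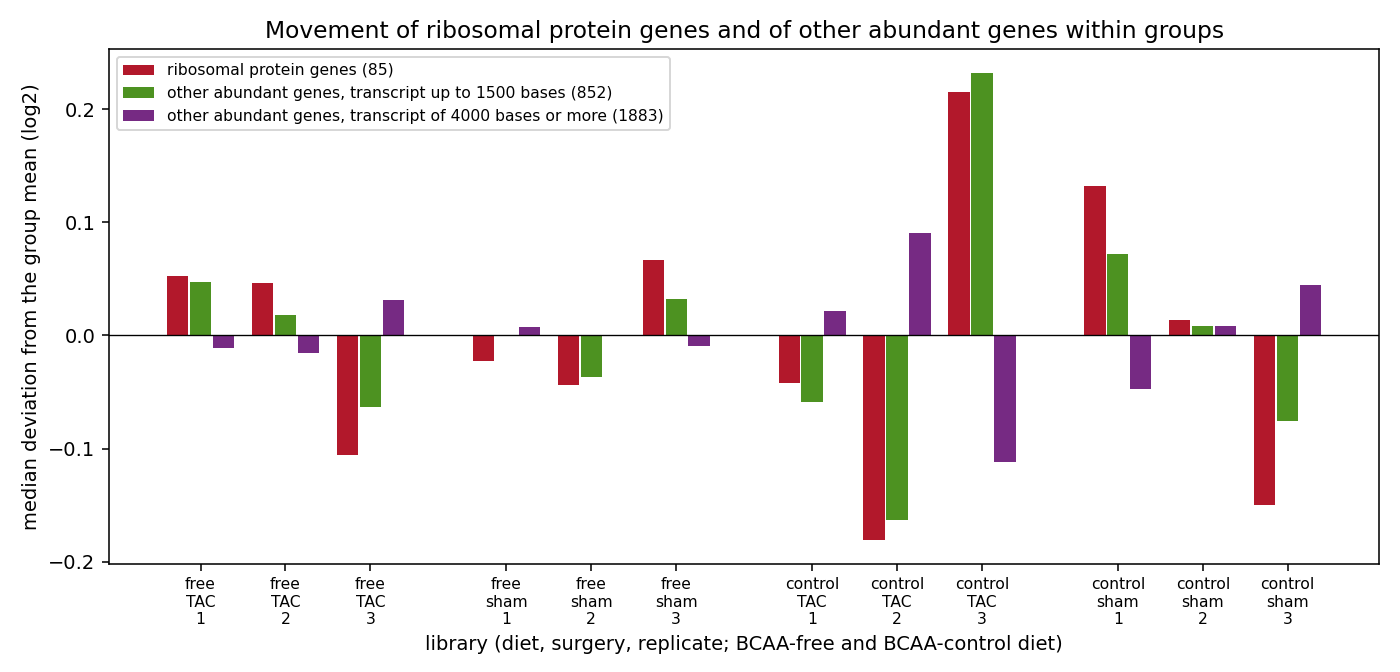
Median deviation from the group mean (log2, vertical axis) in each of the 12 libraries (horizontal axis) for 85 ribosomal protein genes, 852 other abundant genes with short transcripts and 1883 with long ones. The ribosomal protein and the short genes reach 0.22 and 0.23 in BCAA-control TAC 3, where the long genes are at -0.11.

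The size of this movement differed between members. Rpl7l1 had the lowest SD within groups among the protein-coding genes (0.0558, log2), and its 12 values ran close together, at 4140, 4392 and 3955 normalized reads in BCAA-free TAC, 3939, 3814 and 3881 in BCAA-free sham, 4063, 3842 and 4257 in BCAA-control TAC and 4129, 4016 and 3992 in BCAA-control sham hearts. Rps27 had the highest (0.266). The deviations of both correlated with the median deviation of the other members over the 12 libraries (r = 0.783 for Rpl7l1 and 0.851 for Rps27). On the same measure the pseudogene-type Rps4l and Rpl6l had r = -0.01 and -0.00, and low values among the protein-coding genes were those of Rpl13a (0.377) and Rpl31 (0.581).

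**Figure D2:**
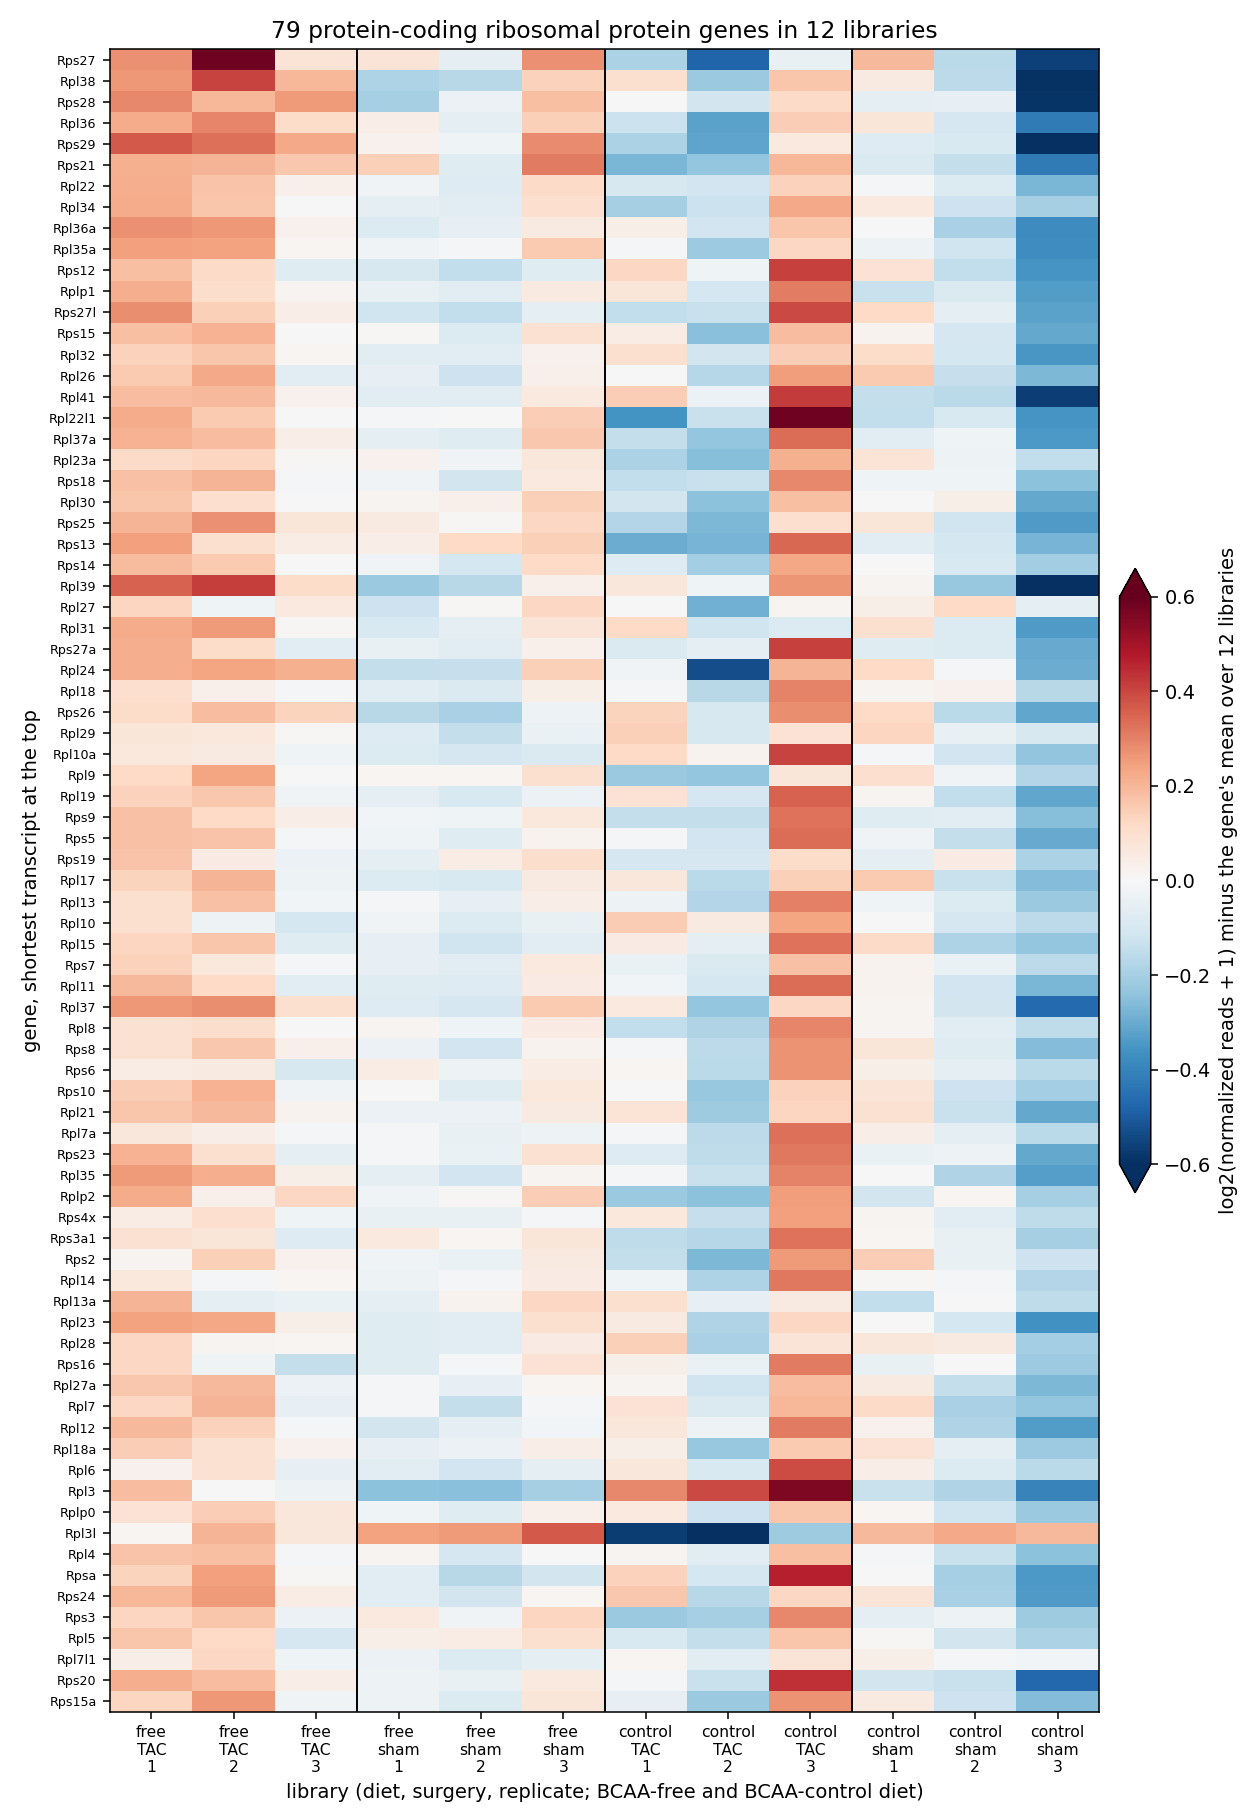
Level of 79 protein-coding ribosomal protein genes (rows, shortest transcript at the top) in 12 libraries (columns), as log2(normalized reads + 1) minus the gene's mean over all libraries; 2 values lie beyond the colour scale of 0.6. Most rows change colour together from library to library, and the rows of Rpl3 and Rpl3l differ from the rest.

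Rpl3 and Rpl3l had the largest differences between groups among the genes called. Rpl3 (chr15:80077791-80091868, minus strand) codes for the large-subunit protein uL3 near the peptidyl transferase centre, and Rpl3l (chr17:24727820-24736143, plus strand, beside Rps2) for its paralog, expressed in heart and skeletal muscle. Rpl3 had 19183, 16851 and 16499 normalized reads in BCAA-free TAC hearts, against 14223, 14176 and 14696 in BCAA-free sham hearts. It had 20576, 22197 and 24865 in BCAA-control TAC hearts, against 15333, 14883 and 12766 in BCAA-control sham hearts. Every TAC library was above every sham library on both diets, and every BCAA-control TAC library was above every BCAA-free TAC library.

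Rpl3l ran the other way. It had 18747, 21390 and 19506 normalized reads in BCAA-free TAC hearts, against 21946, 22217 and 23996 in BCAA-free sham hearts, and 12540, 9374 and 16008 in BCAA-control TAC hearts, against 21236, 21775 and 21273 in BCAA-control sham hearts. The BCAA-control TAC libraries were the 3 lowest of the 12. Per transcript length, Rpl3l made up 52.7% ± 3.37 of the pair in BCAA-free TAC, 60.8% ± 0.695 in BCAA-free sham, 35.2% ± 5.11 in BCAA-control TAC and 59.6% ± 2.28 in BCAA-control sham hearts (SD, n = 3 each). The single libraries spanned 49.0% to 55.5% in BCAA-free TAC, 60.3% to 61.6% in BCAA-free sham, 29.3% to 38.7% in BCAA-control TAC and 57.6% to 62.1% in BCAA-control sham hearts, so the ranges of the TAC groups overlapped neither each other nor those of the sham groups. The ranges of the 2 sham groups overlapped.

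**Figure D3:**
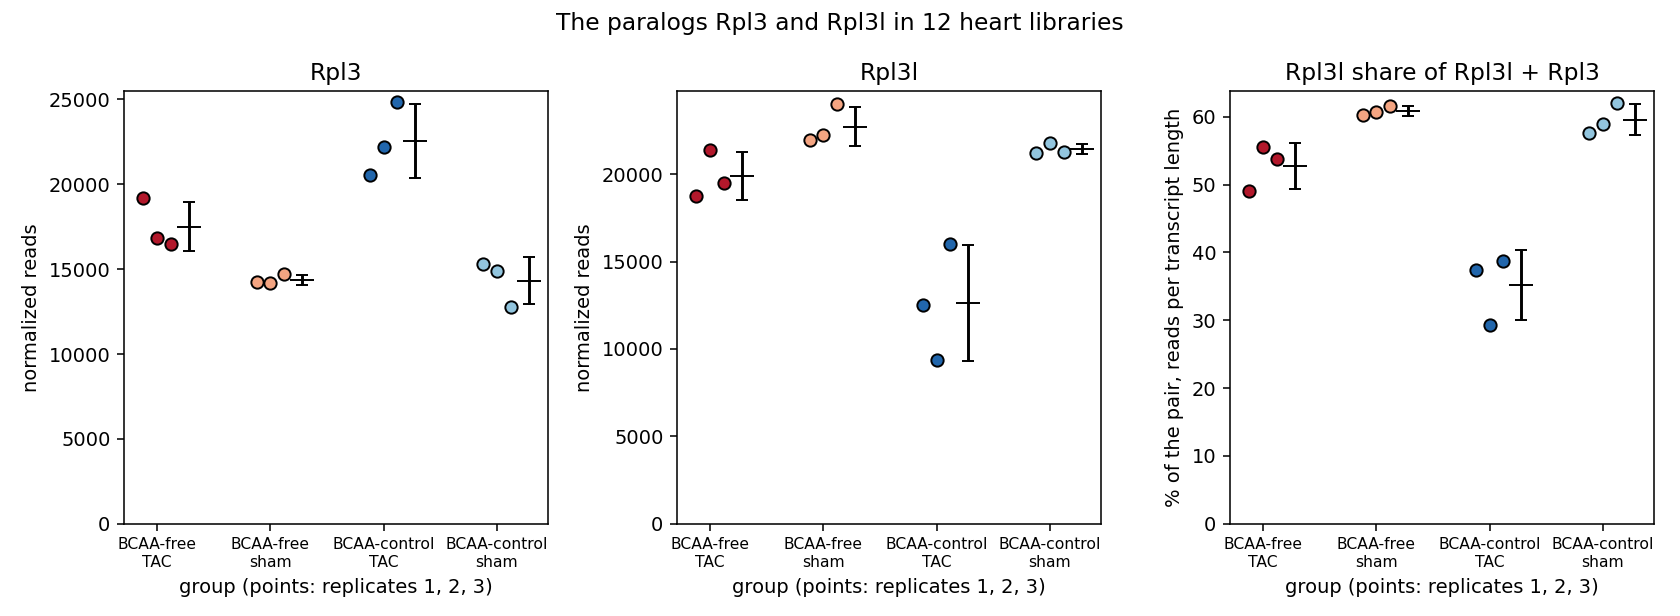
Normalized reads of Rpl3 (left) and Rpl3l (middle) and the share of Rpl3l in the pair per transcript length (right, %) in the 4 groups; points are the 3 libraries, and the bar beside them is the mean ± SD. The share of Rpl3l is 29.3% to 38.7% in BCAA-control TAC and 49.0% to 55.5% in BCAA-free TAC hearts, and 57.6% or more in the sham hearts.

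With TAC on the BCAA-control diet, Rpl3 rose by 0.65 ± 0.12 (log2 fold change ± SE, limma adjusted p = 0.00843) and Rpl3l fell by 0.80 ± 0.18 (limma adjusted p = 0.0171). With TAC on the BCAA-free diet, Rpl3 rose by 0.28 ± 0.062 (adjusted p = 0.0196), while Rpl3l was at -0.20 ± 0.063 (adjusted p = 0.0752). In TAC hearts, Rpl3l was higher on the BCAA-free than on the BCAA-control diet by 0.69 ± 0.18 (adjusted p = 0.0264), and Rpl3 was at -0.36 ± 0.12 (adjusted p = 0.0616). In sham hearts the same contrast gave 0.08 ± 0.056 for Rpl3l (adjusted p = 0.462) and 0.01 ± 0.071 for Rpl3 (adjusted p = 0.977). The comparisons share groups, so these values are not independent of each other.

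The difference between the diets in the TAC response was 0.61 ± 0.20 for Rpl3l (limma adjusted p = 0.172) and -0.37 ± 0.13 for Rpl3 (adjusted p = 0.209), so neither passed over all genes. For Rpl3l the difference was 0.80 with adjusted p = 0.00428 when BCAA-control TAC 3 was left out, a fit that called 10% of all genes. The fall of Rpl3l on the BCAA-control diet had adjusted p = 0.0641, 0.0620, 0.0592 and 0.0618 without BCAA-control sham 1, sham 2, sham 3 and TAC 1. The rise of Rpl3 on the BCAA-free diet had adjusted p = 0.0711, 0.0683 and 0.0584 without BCAA-free sham 1, 2 and 3. The higher Rpl3l of BCAA-free TAC hearts had adjusted p = 0.0779 without BCAA-control TAC 1, and 0.0708, 0.118 and 0.0868 without BCAA-free TAC 1, 2 and 3. Rpl3 overlaps Syngr1 on the opposite strand over 535 bases and holds small RNA genes on its own strand.

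Marker genes of some other cells also differed between the groups. All 11 fibroblast markers were detected, summing to 173013 to 194660 normalized reads in BCAA-free TAC, 150770 to 159989 in BCAA-free sham, 284327 to 387117 in BCAA-control TAC and 170004 to 200380 in BCAA-control sham hearts. With TAC on the BCAA-control diet, 8 of the 11 rose and 1 fell, against 9.17% of all genes rising and 5.64% falling. All 11 macrophage markers summed to 27955 to 35499, 24408 to 27527, 46682 to 49309 and 25079 to 32999 in the same order, and 7 of them rose in that comparison. No marker of the fibroblast, macrophage or cardiomyocyte list was at 0 in any library. The cardiomyocyte markers, given above, had their lowest sums in the BCAA-control TAC hearts, and 1 of the 11 rose and 2 fell in that comparison. Of other lists, 3 of 7 smooth muscle (Cnn1, Des and Tagln) and 2 of 5 skeletal muscle markers (Acta1 and Tnnt3) rose there. So did 1 of 7 atrial (Nppa) and 1 of 6 neutrophil markers (Csf3r). These calls do not show in which cells the genes changed. None of 11 endothelial, 8 lymphocyte and 5 red blood cell markers was called there. With TAC on the BCAA-free diet, 6 fibroblast markers rose and 1 fell, and 4 macrophage markers rose and 0 fell. Of the cardiomyocyte markers 4 rose and 2 fell, against 3.31% and 4.41% of all genes. In TAC hearts, 7 fibroblast markers were lower and 1 higher on the BCAA-free diet, and 10 macrophage markers were lower and 0 higher. For cardiomyocyte markers 5 were higher and 0 lower, against 6.23% and 10.5% of all genes. The part of these cells in the values of Rpl3 and Rpl3l was not tested.

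Outside the ribosomal protein genes, the genes whose log2 values were most like Rpl3 over the 12 libraries, among 14181 genes with a mean of at least 50 normalized reads, were Ccdc68 (Pearson r = 0.978), Gpx8 (0.974), Psmd8 (0.973), Iah1 (0.969) and Hn1 (0.968). Most like Rpl3l were Hnmt (0.985), Bckdhb (0.979), Enpp2 (0.976), Pccb (0.976) and Ttll1 (0.973). Bckdhb codes for a subunit of the branched-chain keto acid dehydrogenase and Pccb for a subunit of propionyl-CoA carboxylase, both in the breakdown of BCAA. The 12 libraries of these correlations fall into the 4 groups, and r is a description. The functions of Hnmt, Enpp2 and Ttll1 are not described here. A link between Rpl3l and the breakdown of BCAA was not tested.

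With TAC on the BCAA-control diet, the other ribosomal protein genes showed no call. Of 86 genes tested, 1 rose (Rpl3) and 1 fell (Rpl3l), against 9.17% of the 18305 genes tested rising and 5.64% falling. The median log2 fold change was 0.11 over the 86 genes and -0.02 over all genes tested, and 73 of the 86 were above 0, against 47.7% of all genes. The median was 0.10 for the small and 0.12 for the large subunit. Rpl41, a very short basic protein, came next with 0.46 ± 0.16 (limma adjusted p = 0.0839), from 17122, 15076 and 20660 normalized reads in BCAA-control TAC against 13993, 13809 and 10418 in BCAA-control sham hearts. Libraries of the groups did not overlap for 4 genes on the higher and 2 on the lower side, against 18.5% and 16.3% of all genes. At an unadjusted p below 0.05, 4 genes were higher and 2 lower, against 16.1% and 13.6% of all genes. The edgeR quasi-likelihood test on the recovered reads called 1 gene higher and 1 lower, against 8.87% and 6.05% of all genes, and DESeq2 called 2 and 1, against 11.8% and 8.06%. In the authors' deposited table, Rpl3 and Rpl41 were higher and Rpl3l was lower at an adjusted p below 0.05, against 11.7% and 8.07% of its genes.

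The median of this comparison depended on single libraries. It was -0.01 without BCAA-control TAC 3, 0.03 without BCAA-control sham 3 and 0.21 without BCAA-control TAC 2, with 1 gene higher each time. These fits called 25.6%, 7.43% and 10.2% of all genes in either direction. The single fall, of Rpl3l, was lost without BCAA-control sham 1, 2 or 3 or BCAA-control TAC 1 (0 genes lower). Over all genes, 7.99%, 7.6%, 7.43% and 7.5% were called in either direction in these fits, against 14.8% with every library. The 852 short abundant genes had a median of -0.04 and the 1883 long ones of -0.15 in the fit with every library. Scaling libraries to their total outside mitochondrially coded genes gave a median of 0.20 for the ribosomal protein genes, with 81 of 86 above 0, and of 0.07 for all genes.

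With TAC on the BCAA-free diet, 7 ribosomal protein genes rose and none fell by limma, out of 85 tested, against 3.31% of the 17611 genes tested rising and 4.41% falling. They were Rps26 (0.27 ± 0.059, adjusted p = 0.0180), Rpl3 (given above), Rpl39 (0.41 ± 0.088, adjusted p = 0.0207), Rps27l (0.26 ± 0.065, adjusted p = 0.0349), Rpl38 (0.35 ± 0.089, adjusted p = 0.0406), Rpsa (0.24 ± 0.065, adjusted p = 0.0435) and Rpl24 (0.27 ± 0.074, adjusted p = 0.0480). The median was 0.12 over the 85 genes and 0.01 over all genes, and 78 of the 85 were above 0, against 51.3% of all genes. The short abundant genes had a median of 0.07 and the long ones of -0.10. With libraries scaled to their total outside mitochondrially coded genes, the median of the ribosomal protein genes was 0.08, with 70 of 85 above 0, and that of all genes -0.03. At an unadjusted p below 0.05, 29 genes were higher and 1 lower (Rpl3l), against 11.3% and 12% of all genes.

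Rpl39, a small protein that lines the exit tunnel, had 12154, 12674 and 10270 normalized reads in BCAA-free TAC hearts, against 8140, 8479 and 9702 in BCAA-free sham hearts. Rpl38, which in mice is known for its part in the translation of Hox mRNAs, had 9009, 9964 and 8652 in BCAA-free TAC hearts, against 6629, 6715 and 8300 in BCAA-free sham hearts. For both genes all 3 TAC libraries were above the sham libraries, and BCAA-free sham 3 was the highest of its group. Of the pair, Rpl38 is the gene printed above with the run TTCTTTCCCC at its start.

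Rps26, a small-subunit protein at the mRNA exit channel, had 11721, 12375 and 11915 normalized reads in BCAA-free TAC hearts, against 9686, 9486 and 10658 in BCAA-free sham hearts. Rps27l, a paralog of Rps27, had 5802, 5279 and 4912 in BCAA-free TAC hearts, against 4401, 4312 and 4612 in BCAA-free sham hearts. Rpl24, a large-subunit protein that bridges to the small subunit, had 7958, 8061 and 7922 in BCAA-free TAC hearts, against 6186, 6203 and 7548 in BCAA-free sham hearts. All 3 genes were higher in each TAC library than in any sham library, and BCAA-free sham 3 was again the highest sham library.

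Rpsa, a small-subunit protein also known as the laminin receptor precursor, had 40172, 43487 and 36874 normalized reads in BCAA-free TAC hearts, against 34977, 32610 and 33961 in BCAA-free sham hearts. Rplp0, the stalk base, did not pass, with 59204, 61799 and 58540 in BCAA-free TAC hearts, against 54808, 52957 and 56992 in BCAA-free sham hearts (log2 0.12 ± 0.054, limma adjusted p = 0.209). Rplp1 was at 0.13 ± 0.062 (adjusted p = 0.239) and Rplp2 at 0.08 ± 0.064 (adjusted p = 0.536). In all, 19 genes had no overlap on the higher and 2 on the lower side, against 13.4% and 14.7% of all genes and 27.3% and 6.34% of the 852 short abundant genes. The lowest fold changes among members with at least 50 normalized reads were those of Rpl3l, Rps4l (-0.09 ± 0.12, adjusted p = 0.722) and Rps3a1 (-0.02 ± 0.058, adjusted p = 0.855).

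The number of calls on the BCAA-free diet moved with the libraries and with the tool. It was 2, 3 and 12 without BCAA-free TAC 1, 2 and 3, and 0, 0 and 6 without BCAA-free sham 1, 2 and 3, while the median stayed between 0.09 and 0.18. Over all genes, the share called in either direction was 5.68%, 7.17% and 5.01% without BCAA-free TAC 1, 2 and 3 and 3.88%, 3.69% and 3.11% without BCAA-free sham 1, 2 and 3, against 7.72% with all 6 libraries. The edgeR test called 5 genes higher and 0 lower, against 3.37% and 3.97% of all genes, and DESeq2 called 10 and 0, against 4.95% and 5.8%. A fit of all 12 libraries by limma called 0, against 1.71% of all genes in either direction. By the authors' deposited table, 10 members were higher at an adjusted p below 0.05, and 0 lower, against 4.93% and 5.79% of its genes. Of the 7 genes, on the BCAA-control diet Rpl3 alone passed; Rpl39 was at 0.37 ± 0.16 there (limma adjusted p = 0.162), Rpsa at 0.34 ± 0.16 (adjusted p = 0.204) and Rpl24 at -0.06 ± 0.19 (adjusted p = 0.856).

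**Figure D4:**
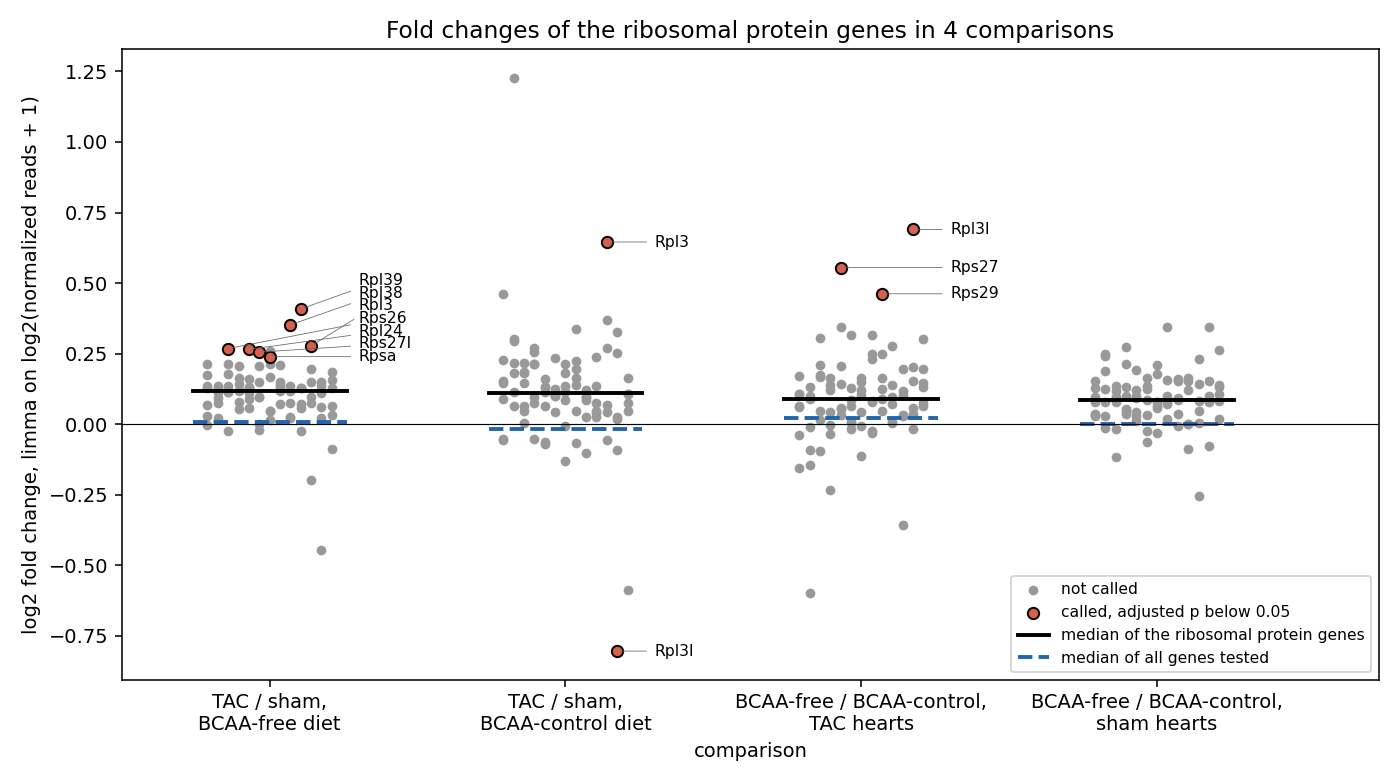
Log2 fold change (vertical axis) of the ribosomal protein genes in 4 comparisons (horizontal axis); named red points passed at a limma adjusted p below 0.05, and lines give the median of the ribosomal protein genes and of all genes tested. The medians of 0.12, 0.11, 0.09 and 0.08 lie above those of all genes in the 4 comparisons, and the one for TAC hearts turns to -0.08 when libraries are scaled to their total outside mitochondrially coded genes. The grey point above 1 is Rpl32l, which had 1 to 18 reads per library.

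In sham hearts, the BCAA-free against the BCAA-control diet gave no ribosomal protein gene past the threshold. By limma 0 of 85 genes were called, against 1.27% of the 17862 genes tested rising and 2.27% falling. At an unadjusted p below 0.05, 9 genes were higher and 0 lower, against 9.11% and 10.8% of all genes. The edgeR test called 0 in either direction, against 0.963% of all genes rising and 2.07% falling, and DESeq2 called 2 higher and 0 lower, against 3.17% and 5.35%. The authors' deposited table has Rps13 and Rps21 higher at an adjusted p below 0.05, against 3.19% of its genes. Rps13 had 16220, 17162 and 17419 normalized reads in BCAA-free sham hearts, against 15087, 14678 and 13024 in BCAA-control sham hearts, a log2 difference of 0.25 ± 0.066 (limma adjusted p = 0.0672), and was chosen after its values were seen. Rps21 had 14580, 12548 and 16411 in BCAA-free sham hearts, against 12453, 11953 and 9833 in BCAA-control sham hearts (0.34 ± 0.12, adjusted p = 0.154).

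The median was 0.08 over the 85 genes and 0.00 over all genes, and 75 of the 85 were above 0, against 50.5% of all genes. Rps29, a zinc-binding small-subunit protein, was at 0.34 ± 0.16 (limma adjusted p = 0.294) and Rps27 at 0.27 ± 0.20 (adjusted p = 0.530). The lowest were the pseudogene-type Rps3a2 (-0.25 ± 0.14, adjusted p = 0.359) and, among protein-coding genes, Rpl29 (-0.09 ± 0.066, adjusted p = 0.518). Without BCAA-control sham 3, in which 81 of 85 genes had their group's lowest value, the median was 0.02, the smallest over the 6 libraries left out in turn, and the largest was 0.15. The median was 0.05 over the 852 short abundant genes and 0.03 over the 1883 long ones. With libraries scaled to their total outside mitochondrially coded genes, the median of the ribosomal protein genes was 0.04, with 58 of 85 above 0, and that of all genes -0.04.

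In TAC hearts, 3 ribosomal protein genes were higher on the BCAA-free than on the BCAA-control diet and none was lower, of 86 tested, against 6.23% of the 18039 genes tested rising and 10.5% falling. Besides Rpl3l these were the small-subunit genes Rps29 (0.46 ± 0.12, limma adjusted p = 0.0283) and Rps27 (0.55 ± 0.16, adjusted p = 0.0377). At an unadjusted p below 0.05, 8 genes were higher and 1 lower (Rpl3), against 14.3% and 17.1% of all genes. The median was 0.09 over the 86 genes and 0.02 over all genes, and 69 of the 86 were above 0, against 52.4% of all genes. It was 0.15 over the 852 short abundant genes, above that of the ribosomal protein genes, and 0.08 over the 1883 long ones.

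Rps29 had 19838, 19324 and 18044 normalized reads in BCAA-free TAC hearts, against 13477, 12373 and 16033 in BCAA-control TAC hearts. Rps27, whose start carries the run CTCCTTTCC, had 16658, 20683 and 14581 in BCAA-free TAC hearts, against 12088, 9896 and 13381 in BCAA-control TAC hearts. Neither gene overlapped between the groups, and BCAA-control TAC 3 was the highest library of its group for both. Rpl10 and Rpl10a, both of the large subunit, had the lowest fold changes of the protein-coding genes after Rpl3, at -0.16 ± 0.11 (limma adjusted p = 0.355) and -0.15 ± 0.12 (adjusted p = 0.441). The edgeR test called 3 genes higher and 0 lower, against 6.5% and 10.3% of all genes, and DESeq2 called 3 and 1, against 8.47% and 12.8%. In all, 6 genes had no overlap on the higher and 1 on the lower side, against 17% and 19.2% of all genes.

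Leaving out BCAA-control TAC 3 changed this comparison most, and raised the number of calls. Without it 32 genes were higher and 1 lower, and the median was 0.19. Over all genes, 33.5% were called in either direction without that library, against 16.8% with it. Without BCAA-control TAC 1 or 2 it was 0 and 1 genes higher, and without BCAA-free TAC 1, 2 or 3 it was 0, 0 and 1. Of all genes, those fits called 8.93%, 11.8%, 10.8%, 6.65% and 8.48% in either direction, in the same order. The median was 0.00 without BCAA-control TAC 2. Scaling each library to its total outside mitochondrially coded genes moved the median of all genes to -0.15 and that of the ribosomal protein genes to -0.08, with 19 of 86 genes above 0, so the direction turned. Relative to the median of all genes, the ribosomal protein genes were at 0.07 under both scalings. Under the scaling outside mitochondrially coded genes, 1 gene was called higher (Rpl3l) and 3 lower, against 19.5% of all genes in either direction. By the authors' deposited table, 3 members were higher (Rpl3l, Rps27 and Rps29) and 1 lower (Rpl3) at an adjusted p below 0.05, against 8.21% and 12.7% of its genes.

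For the difference in TAC response between the diets, limma called 0 of the 85 ribosomal protein genes tested, against 0.171% of the 17493 genes tested with a positive and 0.503% with a negative difference. The edgeR test called 0 as well, against 0.177% and 0.635% of all genes, and so did DESeq2, against 1.6% and 3.11%. At an unadjusted p below 0.05 there were 1 positive (Rpl3l) and 1 negative difference (Rpl3), against 6.55% and 8.11% of all genes. The median difference was -0.00 over the 85 genes and 0.02 over all genes, and with libraries scaled to their total outside mitochondrially coded genes it was -0.12 and -0.10. After Rpl3l the largest positive differences were those of Rpl24 (0.33 ± 0.22, limma adjusted p = 0.552) and Rps3a2 (0.29 ± 0.20, adjusted p = 0.563), and after Rpl3 the largest negative ones were those of Rpl41 (-0.30 ± 0.18, adjusted p = 0.471) and Rps16 (-0.20 ± 0.15, adjusted p = 0.585). A p that misses the threshold does not show that the responses were equal.

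The other paralog pairs showed smaller differences in proportion. Rpl22l1, a paralog of Rpl22, made up 12.4% ± 0.131 of the pair per transcript length in BCAA-free TAC, 12.9% ± 0.253 in BCAA-free sham, 13.1% ± 2.89 in BCAA-control TAC and 12.0% ± 0.472 in BCAA-control sham hearts (SD, n = 3 each). Rps27l made up 17.8% ± 2.41, 17.2% ± 1.14, 22.6% ± 2.46 and 20.4% ± 1.74 of its pair with Rps27 in the same order. Rpl7l1, known for a role in ribosome assembly rather than in the finished subunit, was at 6.01% ± 0.242, 6.20% ± 0.237, 5.97% ± 0.270 and 6.67% ± 0.689 of its pair with Rpl7. Rps4l was at 5.72% ± 0.764, 6.33% ± 0.888, 5.27% ± 0.407 and 5.99% ± 1.43 of its pair with Rps4x. Between TAC and sham hearts of 1 diet, the libraries of these 4 pairs overlapped, except for Rpl22l1 on the BCAA-free diet, with 12.3% to 12.6% in TAC hearts and 12.6% to 13.1% in sham hearts. Between the diets, Rps27l overlapped neither in TAC hearts (15.0% to 19.4% on the BCAA-free and 19.8% to 24.5% on the BCAA-control diet) nor in sham hearts (16% to 18.3% and 18.6% to 22.0%), lower on the BCAA-free diet in both. Rpl22l1 was higher in each BCAA-free sham library (12.6% to 13.1%) than in any BCAA-control sham library (11.5% to 12.5%). Other pairs overlapped between the diets. These shares were not tested.

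Some of the genes that act with the ribosomal proteins passed the test. Of 21 translation factors and other TOP messages, 3 rose and 0 fell with TAC on the BCAA-control diet, against 9.17% and 5.64% of all genes: Pabpc1, the poly(A)-binding protein (0.51 ± 0.10, limma adjusted p = 0.0114), the elongation factor Eef1a1 (0.56 ± 0.12, adjusted p = 0.0165) and the snoRNA host Gas5 (0.40 ± 0.097, adjusted p = 0.0252). The same 3 were lower on the BCAA-free diet in TAC hearts, Pabpc1 by -0.74 ± 0.11 (adjusted p = 0.00202), Eef1a1 by -0.61 ± 0.12 (adjusted p = 0.00929) and Gas5 by -0.37 ± 0.10 (adjusted p = 0.0361), against 10.5% of all genes lower. With TAC on the BCAA-free diet 1 of the 21 rose, Eif3h (0.21 ± 0.054, adjusted p = 0.0353), and in sham hearts 1 fell with the BCAA-free diet, Pabpc1 (-0.36 ± 0.058, adjusted p = 0.0135), against 3.31% of all genes rising and 2.27% falling in these comparisons. The medians of the list were 0.13, 0.08, 0.02 and 0.01 for TAC on the BCAA-control diet, TAC on the BCAA-free diet, diet in sham hearts and diet in TAC hearts.

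Of 45 ribosome biogenesis genes, limma called 1 over all 5 comparisons, Rrp12, which exports pre-ribosomes and rose with TAC on the BCAA-free diet by 0.43 ± 0.089 (limma adjusted p = 0.0145). Of all genes, 3.31% rose in that comparison. The list's medians were 0.06, -0.00, -0.01 and -0.03 in the order just given. Of 16 TOP and mTORC1 regulators, Eif4ebp1, the translation repressor that mTORC1 switches off, rose with TAC on the BCAA-control diet by 0.52 ± 0.11 (adjusted p = 0.0150) and on the BCAA-free diet by 0.37 ± 0.055 (adjusted p = 0.00214). Myc, a driver of ribosome production, rose with TAC on the BCAA-control diet by 0.99 ± 0.25 (adjusted p = 0.0289) and was lower in TAC hearts on the BCAA-free diet by -1.09 ± 0.32 (adjusted p = 0.0490). Atf4, a transcription factor of the amino acid response, rose with TAC on the BCAA-free diet by 0.32 ± 0.066 (adjusted p = 0.0140), and Tsc1, an inhibitor of mTORC1, was higher in TAC hearts on that diet by 0.47 ± 0.14 (adjusted p = 0.0406). So 2 of the 16 rose with TAC on each diet, against 9.17% of all genes on the BCAA-control and 3.31% on the BCAA-free diet. Between the diets in TAC hearts 1 was higher and 1 lower, against 6.23% and 10.5%.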

How the data were processed

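RNA was extracted with Trizol and selected for poly(A), per the labels' protocols. Per the submitters' processing notes, the tools were STAR 2.5.2b, Trimmomatic 0.36, DESeq2 and Subread 1.5.2, and the builds GRCm38 and mm10. Neither the annotation release nor the strand setting is stated there. The 4 deposited tables, 1 for each pair of groups, hold normalized read counts per library (a signal scaled by size factors), and the authors' log2 fold changes, p-values and adjusted p-values. Whole reads were recovered for 100% of the values within 0.0001, and each library's reads were equal in both of its tables, so 1 set of size factors over the 12 libraries was used for levels.

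Each pair of groups was tested alone with limma 3.58.1 (trend and robust empirical Bayes, R 4.3.3) on log2(normalized reads + 1), over genes with a mean of at least 10 normalized reads, with Benjamini-Hochberg adjustment over all genes tested and a threshold of 0.05. The pseudocount makes the fold changes of low genes smaller. The difference of the TAC responses was fitted over 12 libraries. Alternatives were edgeR 4.0.16 (quasi-likelihood) and DESeq2 1.42.0 on the recovered reads, other scalings, filters and pseudocounts, a replicate block, and leaving out each library. The fits were tested on simulated data in which each gene varied independently, without the joint movement described above, so that test does not cover it. Nothing in the labels says that replicates are separate animals, so p-values reflect only how far these samples differ, and part of that spread can be technical. The members and gene lists were chosen with earlier results of these data known. Named members are those called, the 3 largest rises and falls per comparison with a mean of at least 50 normalized reads, the paralog pairs, the stalk proteins and Rpsa, and the 5 highest and lowest per kilobase. Rps13, Rpl13a and Rpl31, named outside this rule, were chosen after their values were seen. Some genes under the rule are not reported here. Unless said otherwise, "rose" and "fell" mean a limma adjusted p below 0.05.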

Additional observations from a re-analysis of the deposited data

How the results depend on the processing

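Scaling to the total outside mitochondrially coded genes, and outside these and the ribosomal protein genes, gave 2 and 3 genes higher with TAC on the BCAA-control diet, 3 and 3 higher and 1 and 1 lower with TAC on the BCAA-free diet, and 1 and 1 higher and 3 and 3 lower with the BCAA-free diet in TAC hearts, where the median was -0.080 and -0.081. Over all genes, these scalings called 13.3% and 13.5%, 9.34% and 9.18%, and 19.5% and 19.8% in either direction, in the same order. The read shares outside mitochondrially coded genes averaged 2.37% in BCAA-free TAC, 2.25% in BCAA-free sham, 2.51% in BCAA-control TAC and 2.19% in BCAA-control sham hearts. DESeq2 called 2 higher with TAC on the BCAA-control diet, 2 higher with the BCAA-free diet in sham hearts and 1 lower with that diet in TAC hearts, against 11.8%, 3.17% and 12.8% of all genes. A fit of all 12 libraries called 4 higher with TAC on the BCAA-control diet, 0 higher with TAC on the BCAA-free diet and 1 lower with the BCAA-free diet in TAC hearts. In that fit 24.9%, 1.71% and 25.3% of all genes were called in either direction. The cause was not tested.

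With the replicate block, 0 genes were higher with TAC on the BCAA-free diet and 1 with the BCAA-free diet in TAC hearts. Over all genes, 3.54% and 11.3% were called in either direction with the block, against 7.72% and 16.8% without it. Libraries share only a number, and the correlations of same-numbered libraries ran from -0.177 to 0.108.

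Leaving out each library gave 1 to 1 genes higher, 0 to 1 lower and a median of -0.01 to 0.21 with TAC on the BCAA-control diet, and 0 to 12 higher, 0 to 1 lower and a median of 0.09 to 0.18 with TAC on the BCAA-free diet. It gave 0 to 0 genes and a median of 0.02 to 0.15 for the BCAA-free diet in sham hearts, 0 to 32 higher, 0 to 1 lower and a median of 0.00 to 0.19 for that diet in TAC hearts, and 0 to 1 higher, 0 to 0 lower and a median of -0.09 to 0.10 for the difference of TAC responses. Over all genes, these fits called 7.43% to 25.6%, 3.11% to 7.17%, 0.28% to 6.03%, 6.65% to 33.5% and 0.0915% to 10% in either direction, in the same order. The sign of uncalled genes turned for Rpl3 with the BCAA-free diet in sham hearts, at -0.040 and -0.039 under the totals, -0.00075 by edgeR and -0.075 to 0.055 over the libraries left out. It also turned, over the libraries left out, for Rps4l (-0.20 to 0.019) and Rps3a1 (-0.053 to 0.027) with TAC on the BCAA-free diet, and for Rps3a3 (-0.17 to 0.0015) with the BCAA-free diet in sham hearts.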
